A study of Mus musculus with 15 samples.

Results

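Adhesion G protein-coupled receptors are surface proteins that join a long extracellular region, built for contact with other cells and matrix, to a membrane-spanning region that signals through G proteins. Most are cut during synthesis at an autoproteolysis site next to the membrane, and the short stretch exposed at the cut acts as a tethered agonist. In the nervous system the latrophilins (Adgrl1 to Adgrl3) bind teneurins, FLRT proteins and neurexins at contacts between neurons. The Celsr proteins act in planar cell polarity and axon guidance. The brain angiogenesis inhibitors (Adgrb genes) act at synapses and in the uptake of dying cells.

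The members were the genes whose current symbol starts with Adgr, together with Celsr1 to Celsr3. Of 30 such genes listed, 25 had a probe set that carried their symbol alone, among 18193 genes on the array, and Adgrf2, Adgrf3, Adgrg4, Adgrg5 and Adgrg7 were not analysed here. The 25 genes had 45 probe sets, and each gene was represented by the one with the highest mean signal over all 15 arrays. Probe sets were thus chosen by overall signal and not by a difference between groups. A filter on low signal passed 17 members, and Adgrd1, Adgre1, Adgre4, Adgrf1, Adgrf4, Adgrf5, Adgrg3 and Adgrl4 did not pass it.

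The RNA of 15 samples, 5 groups of 3, was hybridised to Affymetrix mouse arrays. Side population (SP) cells, which retain little of a DNA dye because transporters pump it out, were separated from non-side population (non-SP) cells by flow cytometry. Tumorspheres, floating cultures grown from brain tumours, came from lines 3447 and 4346. Both sorted fractions were assayed for line 3447, and for line 4346 only the SP. Both lines arose in S100beta-verbB mice, in which the S100beta promoter drives the verbB oncogene, on a p53-/- or a p53+/- background, and the labels do not say which background belongs to which line. The cells of each line were injected into the brain of an immunodeficient host, NOD.Cg-Prkdc<scid>Il2rg<tm1Wjl>/SzJ, to form tumours and were cultured again before sorting. The 3 arrays of a group are therefore hosts of 1 line and not independent tumours, and host cells could have been carried along. Controls for either fraction were untransformed neurospheres, cultures of neural stem and progenitor cells, from mice that also carried S100beta-verbB and either p53-/- or p53+/-. The design text takes these from 3 independent mice at 1 place and from mice injected with neurospheres at another, so their origin is uncertain. Ages were not given.

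Before the values, the stretch of 250 bases in front of an annotated start of each of the 3 latrophilin genes is shown. These genes were picked because they differed between tumour and neurosphere arrays. Whether the composition of the stretches bears on the signals was not tested. The sequences are from RefSeq on build GRCm38.p6, read in the direction of transcription, with GC box (GGGCGG) and E-box (CANNTG) matches on either strand in capitals. A match is a description of the letters, not a binding site.

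Adgrl1: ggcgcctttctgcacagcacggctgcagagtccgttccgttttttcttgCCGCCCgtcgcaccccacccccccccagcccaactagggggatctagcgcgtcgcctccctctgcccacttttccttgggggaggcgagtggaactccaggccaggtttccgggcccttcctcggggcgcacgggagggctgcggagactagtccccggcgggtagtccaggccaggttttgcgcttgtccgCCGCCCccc
Adgrl2: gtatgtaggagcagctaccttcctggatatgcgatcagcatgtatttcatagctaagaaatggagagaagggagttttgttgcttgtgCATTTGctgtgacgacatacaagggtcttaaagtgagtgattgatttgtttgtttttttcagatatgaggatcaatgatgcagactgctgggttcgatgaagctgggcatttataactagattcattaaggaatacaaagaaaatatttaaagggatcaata
Adgrl3: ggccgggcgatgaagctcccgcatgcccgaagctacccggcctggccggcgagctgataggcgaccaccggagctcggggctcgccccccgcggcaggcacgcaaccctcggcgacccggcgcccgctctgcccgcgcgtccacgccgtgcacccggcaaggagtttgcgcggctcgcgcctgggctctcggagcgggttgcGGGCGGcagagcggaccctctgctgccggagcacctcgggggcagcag

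The Adgrl1 stretch lies at chr8:83899848-83900097 on the plus strand, with 68.8% G or C, 21 CpG dinucleotides and 2 GC boxes. The Adgrl3 stretch lies at chr5:81020321-81020570 on the plus strand, in front of 1 of the gene's 3 listed starts, with 76.8% G or C, 36 CpG and 1 GC box. The Adgrl2 stretch lies at chr3:148954636-148954885 on the minus strand, in front of the only start listed, which falls inside the annotated span of the gene. It held 37.6% G or C, 3 CpG and 1 E-box. Over 32536 such stretches of mouse genes the median was 52.4% G or C with 6 CpG, 33.0% held a GC box and 66.2% held an E-box. The arrays do not measure these stretches, and which start was used in these cells was not measured.

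Tumour and neurosphere cells differed in 7 to 10 of the tested receptors. SP and non-SP cells of the same origin differed in none past the test. Hardly any gene passed there, 0.00841% of all genes tested in line 3447 and 0.0168% in neurospheres. Adgrl1, Adgrl3, Adgrg2 and Adgra2 were higher and Adgrl2, Adgra1 and Celsr3 lower in each of the 3 comparisons with neurospheres. In the SP of line 3447 against the neurosphere SP, 9 of the 17 members tested passed an adjusted p of 0.05 (limma, Benjamini-Hochberg over all genes), 4 higher and 5 lower, where 19.7% of all 11896 genes tested passed, 10.7% higher and 9.01% lower. In the SP of line 4346 against the same neurosphere SP arrays, 10 passed, 5 in each direction, where 24.3% of all genes passed, 14.0% higher and 10.3% lower. For non-SP cells, line 3447 against neurospheres, 7 passed, 4 higher and 3 lower, where 19.5% of all genes passed, 11.3% higher and 8.26% lower. The median difference over the tested members was -0.41, -0.49 and -0.34 on the log2 scale in these comparisons, against -0.03, 0.02 and 0.04 over all genes. Without the filter 8, 10 and 7 of all 25 members passed, against 11.4%, 14.4% and 11.3% of 18193 genes. The count for line 4346 fell to 6 without its array 3, and the non-SP count fell to 4 without line 3447 non-SP array 1 or 2 or without neurosphere non-SP array 2. Without normalization between arrays the non-SP split was 2 higher and 3 lower. Some members passed the filter only through the groups in which they were high, so the filter favoured a difference from the groups in which they were low. Adgra2 lay above the array median in 3 arrays, all of tumour SP, Adgrg2 in 6 tumour arrays, Adgra1 in 5 neurosphere arrays and Celsr3 in 6 neurosphere arrays and 1 other. The first 2 comparisons share the neurosphere SP arrays, and the arrays are bulk samples, in which fewer cells of a type and less RNA per cell cannot be told apart.

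**Figure D1:**
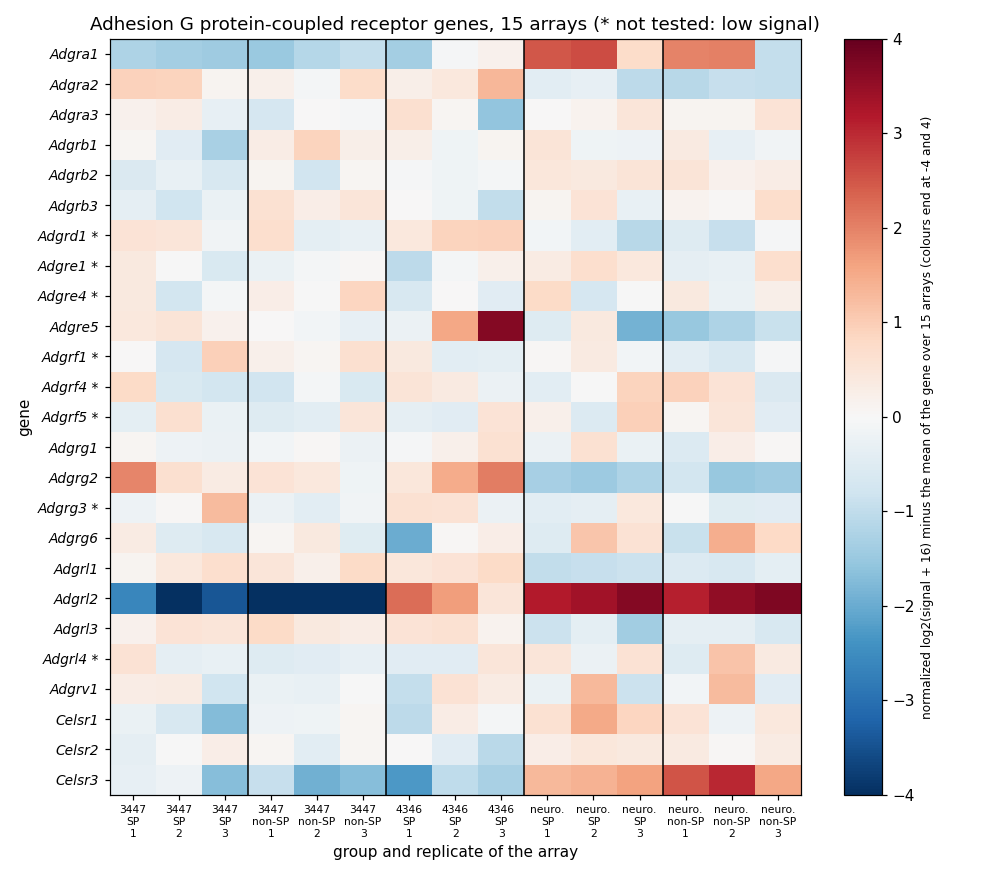
Normalized log2(signal + 16) of the 25 members (vertical axis) on the 15 arrays (horizontal axis, by group and replicate), each gene shown as the difference from its own mean, red above and blue below; an asterisk marks the 8 members that were not tested. Adgrl2 is deep blue on the 6 arrays of line 3447 and red on the 6 neurosphere arrays, and Celsr3 and Adgra1 are red on most neurosphere arrays.

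Among the latrophilins, Adgrl1 and Adgrl3 were higher in tumour cells and Adgrl2 was lower, and for Adgrl2 the lines differed from each other. Adgrl1, a receptor for teneurin 2 and for the spider toxin alpha-latrotoxin, had deposited signals of 2976, 3736 and 4235 in line 3447 SP, 3933, 3222 and 4685 in line 3447 non-SP and 3875, 4158 and 4774 in line 4346 SP. The neurosphere arrays read 1386, 1438 and 1515 in SP and 1922, 1743 and 2140 in non-SP. Every tumour array was above every neurosphere array. The log2 difference was 1.31 ± 0.18 (SE) for line 3447 SP (adjusted p = 7.6e-05, limma), 1.5 ± 0.18 for line 4346 SP (adjusted p = 2.0e-05) and 1.01 ± 0.18 for the non-SP (adjusted p = 0.000822). A second probe set, which read between 14.2 and 184, moved by -0.02, 1.01 and 1.10 in the same order, so in line 3447 SP the probe sets of Adgrl1 disagree.

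Adgrl3, which binds FLRT3 and teneurins at glutamatergic synapses, followed the same direction. Its signals were 3857, 4950 and 4590 in line 3447 SP, 6038, 4426 and 4243 in line 3447 non-SP and 5104, 5331 and 3820 in line 4346 SP. In neurospheres they were 1894, 2634 and 1280 in SP and 2685, 2573 and 2256 in non-SP. No tumour array fell into the neurosphere range. The differences were 1.27 ± 0.22 (adjusted p = 0.000751), 1.31 ± 0.22 (adjusted p = 0.000503) and 0.95 ± 0.22 (adjusted p = 0.00667), and the 5 other probe sets of the gene moved up by 0.79 to 1.49, 1.24 to 1.95 and 0.69 to 1.54 in the same order.

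Adgrl2, the latrophilin that is needed for synapses of the entorhinal input onto hippocampal neurons, was strongly measured in neurospheres, at 6735, 7663 and 9377 in SP and 6189, 8269 and 9420 in non-SP. In line 4346 SP it read 3463, 2356 and 994, below every neurosphere array. In line 3447 it read 117, 13.6 and 88.8 in SP and 1.21, 22.6 and 3.45 in non-SP, below the array median on 5 of these 6 arrays. The 3 origins therefore did not overlap, with line 4346 between the neurospheres and line 3447. The difference from the neurosphere SP was -6.85 ± 0.44 in line 3447 (adjusted p = 2.0e-08) and -1.94 ± 0.44 in line 4346 (adjusted p = 0.00418), and the non-SP difference was -8.36 ± 0.44 (adjusted p = 2.3e-09). A second Adgrl2 probe set gave -6.42, -2.38 and -7.06 for these comparisons, and the third, which read between 1.31 and 32.7 on all arrays, gave -0.03, 0.25 and -0.24. Adgrl4, a receptor of endothelial cells, read between 0.688 and 51.1 and was not tested.

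The calls for Adgrl1, Adgrl2 and Adgrl3 held in each comparison when any array was left out and under every other alternative tried.

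**Figure D2:**
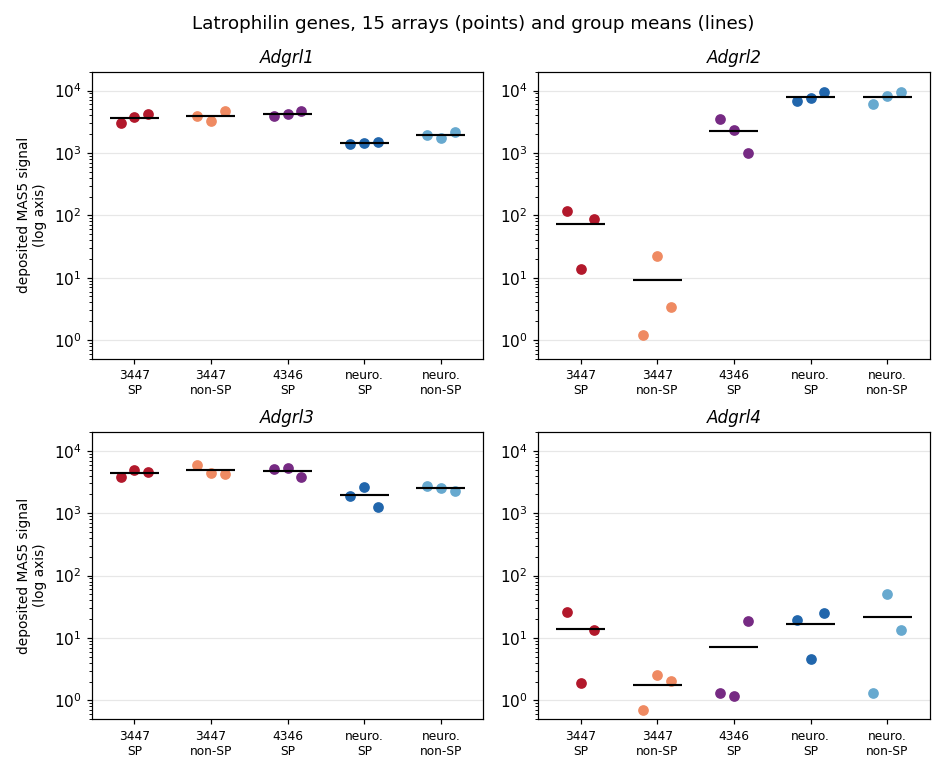
Deposited MAS5 signal (log axis) of the 4 Adgrl genes by group, with a point per array and a line at the group mean. Adgrl1 and Adgrl3 are higher on all 9 tumour arrays, Adgrl2 falls from neurospheres through line 4346 to line 3447, and Adgrl4 stays at 51.1 or below.

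The Celsr genes encode cadherins with 7 membrane passes that carry planar cell polarity signals between neighbouring cells, and each was lower in at least 1 tumour comparison. Celsr3, which guides axon tracts, read 182, 205 and 242 in neurosphere SP and 475, 690.5 and 230.1 in neurosphere non-SP. In the tumour groups it read 62.4, 49.2 and 20.2 in line 3447 SP, 19.9, 9.05 and 5.71 in line 3447 non-SP and 0.86, 18.3 and 18.9 in line 4346 SP. All 9 tumour arrays were below all 6 neurosphere arrays. The differences were -2.18 ± 0.48 (adjusted p = 0.00421, limma) for line 3447 SP, -2.96 ± 0.48 (adjusted p = 0.00033) for line 4346 SP and -3.88 ± 0.48 (adjusted p = 2.7e-05) for the non-SP, and these calls held under every alternative.

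Celsr1, which orients cells in epithelia and ependyma, read 173, 361 and 223 in neurosphere SP against 109, 61.4 and 48.5 in line 3447 SP and 36.9, 138 and 104 in line 4346 SP. The tumour and neurosphere SP arrays did not overlap. It was lower by a log2 difference of -1.87 ± 0.42 in line 3447 (adjusted p = 0.00457) and -1.27 ± 0.42 in line 4346 (adjusted p = 0.0364). The second call was lost without line 4346 SP array 1 or 3 or neurosphere SP array 2 or 3, with adjusted p between 0.0557 and 0.153. In non-SP cells Celsr1 read 86.2, 107 and 126 in line 3447 and 174, 121 and 153 in neurospheres, which overlap, and the difference of -0.36 ± 0.42 did not pass (adjusted p = 0.607).

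Celsr2, which is widely expressed in neural progenitors and neurons, was strongly measured on every array, between 1311 and 3850. In the SP of line 4346 it read 2824, 2053 and 1311 against 3409, 3850 and 3573 in neurosphere SP, a difference of -0.88 ± 0.24 (adjusted p = 0.0152). Without line 4346 SP array 3, the lowest of them, the adjusted p was 0.0687, and with each array centred on its median it was 0.191. A second Celsr2 probe set read between 1.84 and 71.4 and failed the filter on low signal. It gave 0.57 in line 4346 SP, the opposite direction, -0.06 in line 3447 SP and 0.01 in non-SP. The SP of line 3447, at 2184, 2744 and 3224, differed by -0.41 ± 0.24 (adjusted p = 0.261), and its non-SP, at 2983, 2044 and 2889, by -0.34 ± 0.24 from 3610, 2777 and 3516 (adjusted p = 0.375).

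Of the 3 Adgra members, Adgra1 was lower and Adgra2 higher in tumour cells, and Adgra3 did not pass. Adgra1, an orphan receptor found mainly in brain, read 242, 272 and 67.7 in neurosphere SP and 173, 202 and 7.04 in neurosphere non-SP, so replicate 3 was the lowest in both sorts. Line 3447 read 5.32, 1.6 and 7.77 in SP and 0.706, 7.49 and 4.91 in non-SP, and line 4346 SP read 1.68, 22.0 and 36.6. The SP groups did not overlap, while neurosphere non-SP array 3 lay within the range of line 3447 non-SP. The difference was -3.27 ± 0.70 in line 3447 SP (adjusted p = 0.00335), -2.35 ± 0.70 in line 4346 SP (adjusted p = 0.0227) and -2.22 ± 0.70 in non-SP (adjusted p = 0.0354). Other probe sets of Adgra1 were lower too, one of them by far less: they gave -0.63, -1.21 and -1.43, and -2.05, -2.17 and -2.08, in this order. The call in line 4346 was lost without its array 1 or neurosphere SP array 1 or 2 (adjusted p 0.0851 to 0.093), and that in non-SP without any array of line 3447 non-SP or neurosphere non-SP array 1 or 2 (0.0677 to 0.157).

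Adgra2, which acts with Reck as a co-receptor for Wnt7 ligands in brain vessels, read 68.9, 46.5 and 52.5 in line 3447 SP, 19.3, 25.4 and 39.3 in line 3447 non-SP and 20.7, 26.4 and 73.4 in line 4346 SP. Neurospheres read 13.4, 14.1 and 2.91 in SP and 1.43, 5.66 and 3.19 in non-SP. All tumour arrays were above all neurosphere arrays. The differences of 1.26 ± 0.42 (adjusted p = 0.0478), 1.27 ± 0.42 (adjusted p = 0.0394) and 1.29 ± 0.42 (adjusted p = 0.0425) were close to the threshold. Adgra2 left the tested set without line 3447 SP array 1 or 2 or line 4346 SP array 3. Among the other arrays, leaving out any that was not of line 3447 SP ended the call in line 3447 SP, and leaving out line 3447 non-SP array 1, line 4346 SP array 2 or any neurosphere SP array ended that in line 4346. The non-SP call ended without any array of either non-SP group, line 4346 SP array 2 or neurosphere SP array 1. The adjusted p of these lost calls ran from 0.0508 to 0.161. With the neurosphere replicate numbers as a block the adjusted p in line 3447 SP was 0.054. Adgra3, a broadly expressed relative, read between 175 and 916, with differences of -0.15 ± 0.42, -0.49 ± 0.42 and -0.50 ± 0.42 that did not pass.

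In the Adgrg group, Adgrg2, a receptor first described in the epididymis, was near the low end in neurospheres, at 3.78, 1.85 and 6.39 in SP and 13.3, 1.58 and 2.0 in non-SP. The tumour arrays read 195, 53.0 and 82.1 in line 3447 SP, 43.2, 56.2 and 19.9 in line 3447 non-SP and 41.5, 113 and 182 in line 4346 SP, all above the neurosphere arrays. The differences were 2.31 ± 0.48 (adjusted p = 0.00301), 2.66 ± 0.48 (adjusted p = 0.000842) and 1.5 ± 0.48 (adjusted p = 0.0394). The non-SP call was lost without line 3447 non-SP array 1 or 2 or neurosphere non-SP array 2 or 3 (adjusted p 0.0938 to 0.124). A second probe set, which read at most 25 and failed the filter on low signal, gave -0.07, 0.55 and -0.37.

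Adgrg1, which binds collagen III and transglutaminase 2 and acts in cortical development and in oligodendrocyte progenitors, read between 368 and 833 on all arrays, with differences of -0.16 ± 0.28, 0.21 ± 0.28 and -0.04 ± 0.28 (95% intervals -0.76 to 0.44, -0.39 to 0.82 and -0.64 to 0.57). Adgrg6, which starts myelination in Schwann cells, read 1646, 5320 and 3524 in neurosphere SP and 1285, 6457 and 4197 in neurosphere non-SP, with replicate 1 low and replicate 2 high in both sorts. Tumour arrays read between 597 and 3133 and overlapped the neurosphere arrays in each comparison, and no difference of Adgrg6 passed.

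Adgre5 (CD97), a receptor of leukocytes and of several tumours that binds CD55 and Thy1, varied widely within line 4346 SP. Line 4346 SP read 97.5, 397 and 1847, line 3447 SP 194, 193 and 173, and neurosphere SP 79.5, 171 and 27.3, so line 4346 overlapped the neurospheres. The difference for line 4346 was 2.33 ± 0.70 (adjusted p = 0.0242), and without line 4346 SP array 3 or neurosphere SP array 3 the adjusted p was 0.121 or 0.106. Line 3447 differed by 1.03 ± 0.70 in SP (adjusted p = 0.343) and, with 116, 124 and 95.9 against 32.3, 60.2 and 54.3, by 1.07 ± 0.70 in non-SP (adjusted p = 0.331). The deposited signals did not overlap in either of these, but after normalization those of the SP did, and neither difference passed.

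Among the brain angiogenesis inhibitors, Adgrb2 was lower in line 3447 SP. It read 82.0, 81.1 and 103 there against 148, 148 and 167 in neurosphere SP, with no overlap and a difference of -0.96 ± 0.28 (adjusted p = 0.0231). The call was lost without line 3447 SP array 1 or 3 or neurosphere SP array 1 or 3 (adjusted p 0.0618 to 0.0681) and with no normalization between arrays (0.0751). In line 4346 SP it read 97.1, 88.1 and 97.7 and differed by -0.55 ± 0.28 (adjusted p = 0.163), and the non-SP difference was -0.53 ± 0.28 (adjusted p = 0.213). Adgrb1, a receptor for phosphatidylserine on dying cells, read between 41.2 and 158 and Adgrb3, which binds C1q-like proteins at synapses, between 134 and 485, and neither differed from neurospheres past the test. Adgrv1, a very large receptor of inner ear hair bundles, read 132, 440.3 and 90.1 in neurosphere SP and 156, 465 and 112 in neurosphere non-SP, so replicate 2 was high in both sorts, and no difference passed.

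**Figure D3:**
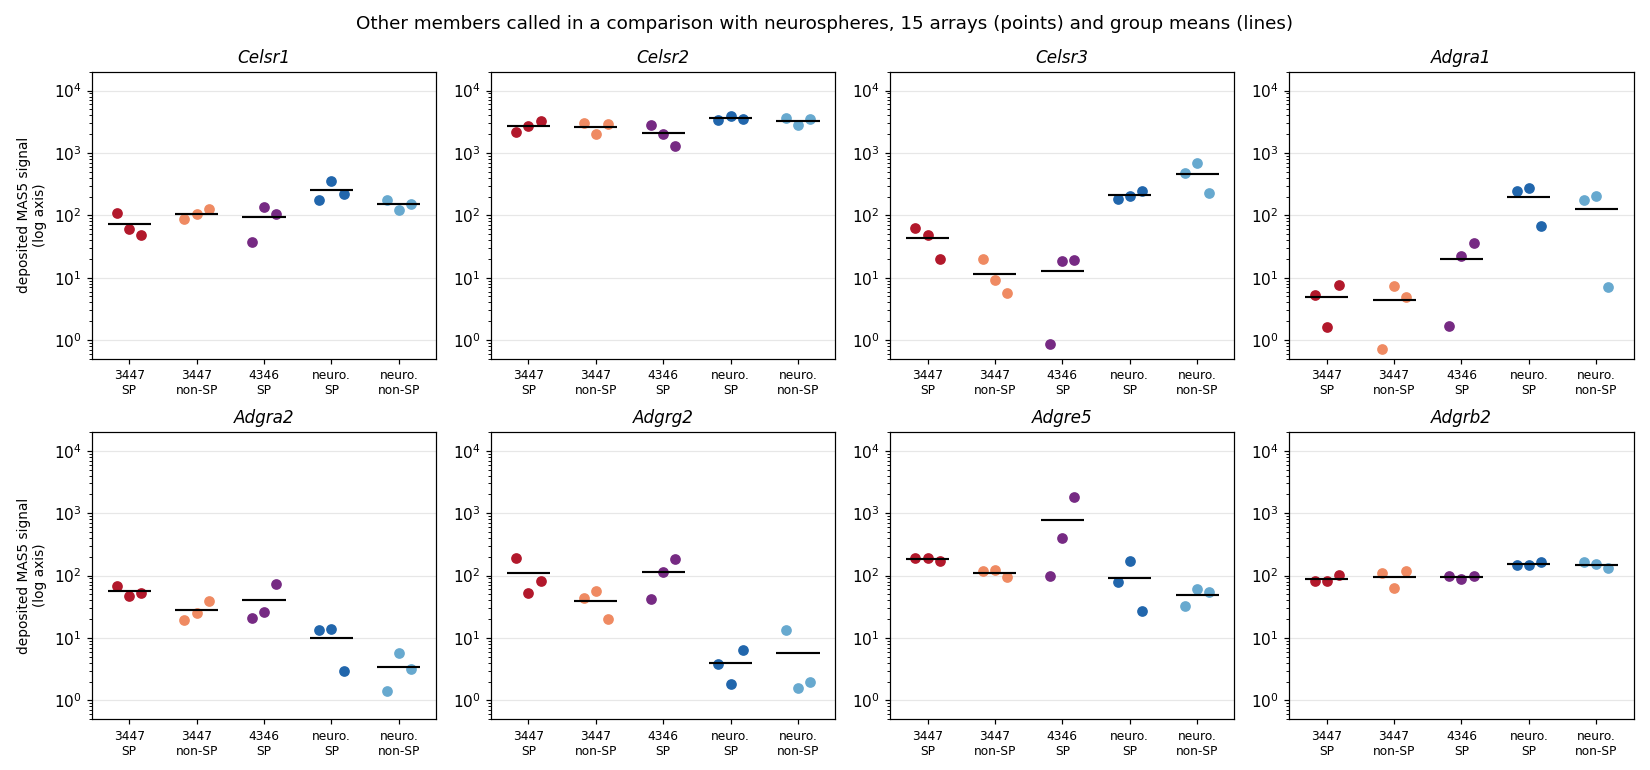
Deposited MAS5 signal (log axis) of the 8 members outside the latrophilins that passed the test in a comparison with neurospheres, by group, with a point per array and a line at the group mean. Celsr3 and Adgra2 separate all tumour from all neurosphere arrays, Adgre5 spans 97.5 to 1847 within line 4346 SP, and Adgra1 has 1 low array in neurosphere non-SP.

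**Figure D4:**
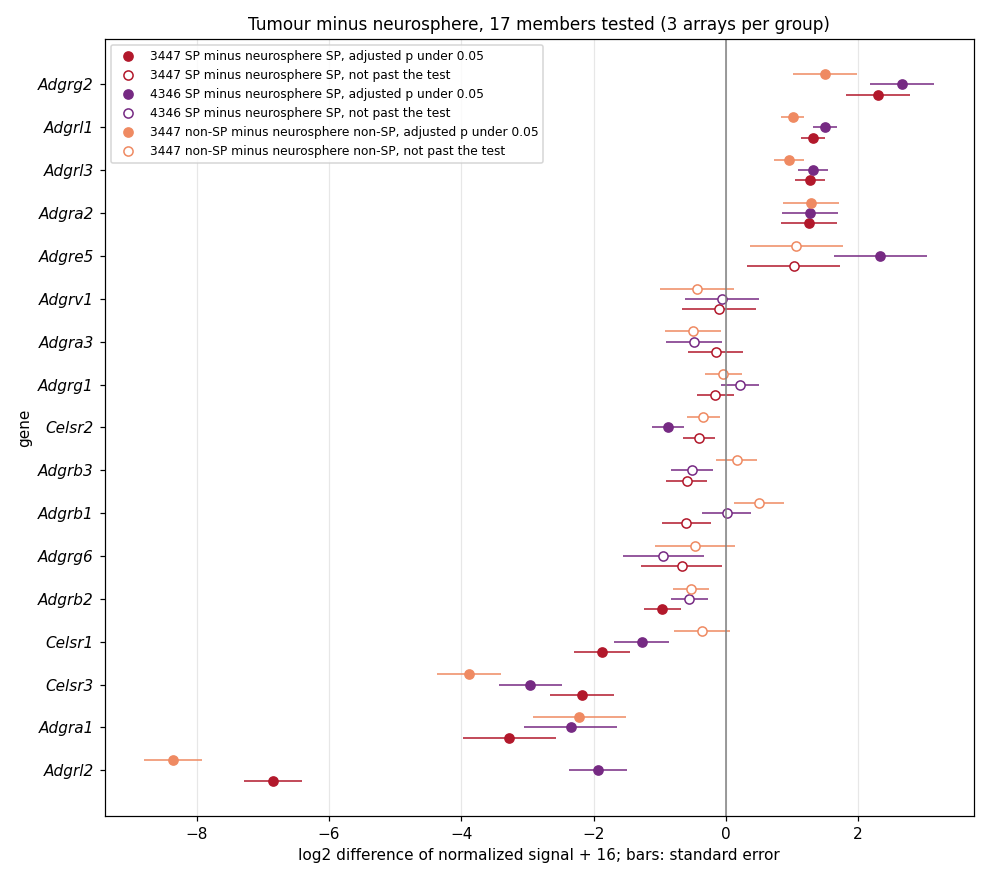
Log2 difference of tumour minus neurosphere for the 17 members tested, with the gene on the vertical axis and bars for the standard error; filled points passed an adjusted p of 0.05 and open points did not. Differences run from -8.36 for Adgrl2 in non-SP cells to 2.66 for Adgrg2 in line 4346 SP.

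The members that were not tested read low on most arrays. Adgrd1, which has a tethered agonist and couples to Gs, read between 2.16 and 52.7. Adgre1 (F4/80, the classical macrophage antigen) read between 0.741 and 39.8 and Adgre4 between 1.07 and 34.6. Adgrf1 read between 0.62 and 71.8, Adgrf4 between 0.755 and 44.5, Adgrf5, which controls surfactant in the lung, between 1.08 and 39.4, and Adgrg3 between 0.932 and 74.7. In a fit without the filter Adgrd1 was higher in line 4346 SP, at 25.8, 46.7 and 52.7, than in neurosphere SP, at 20.6, 12.8 and 2.16, by 1.29 ± 0.38 (adjusted p = 0.0324), and it passed in no other comparison.

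The SP of the tumour lines differed from each other in 1 member. Adgrl2 was lower in line 3447 than in line 4346 by a log2 difference of -4.91 ± 0.44 (95% interval -5.84 to -3.99, adjusted p = 7.3e-06, limma), where 1.71% of all genes passed. This test also measures how far the distance of Adgrl2 from the neurosphere SP differed between the lines, since both share that control. For Adgrl1 the interval of the difference was -0.57 to 0.19, but its second probe set gave -1.03, so the probe sets disagree here too. For Adgrl3 the interval was -0.52 to 0.43, and its 5 other probe sets gave -0.50 to -0.28. The intervals were wider for Adgre5, from -2.80 to 0.19, and for Adgra1, from -2.41 to 0.56, so for these members the data leave a wide range of possible differences between the lines. With line 4346 represented by SP cells only, the lines could not be compared in non-SP cells.

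Comparing the sorted fractions asks whether the dye-excluding cells that the study sorted as candidate stem cells carry a different set of receptors. In line 3447, 0 members passed the test (limma), with 3 of 17 at an unadjusted p under 0.05, where 0.00841% of all genes passed. Adgrl2 was higher in SP by 1.46 ± 0.44 (95% interval 0.53 to 2.38, unadjusted p = 0.00419, adjusted p = 0.39) at the low signals given above, where the deposited values overlapped and every non-SP array was below its array median. After normalization the Adgrl2 values did not overlap. The second probe set gave 0.40. Adgrb3 read 243, 162 and 262 in SP and 450.1, 366 and 423 in non-SP, with no overlap and a difference of -0.93 ± 0.31 (adjusted p = 0.493). Adgrb1, at 94, 41.2 and 41.3 against 80.2, 158 and 86.4, overlapped in these deposited values but not after normalization, and differed by -1.02 ± 0.38 (adjusted p = 0.576). In neurospheres 0 members passed, with 1 at an unadjusted p under 0.05, where 0.0168% of all genes passed. That member was Adgrl1, lower in SP on every array, at -0.39 ± 0.18 (unadjusted p = 0.044, adjusted p = 1.00), while its second probe set gave 0.49, the opposite direction. Since the replicate numbers pair the neurosphere samples, the comparison was also fitted with them as a block, and again 0 members passed, where 0.0588% of all genes passed. Adgrl3 (-0.42 ± 0.19, unadjusted p = 0.0418, adjusted p = 0.791, limma) and Adgrl1 had an unadjusted p under 0.05 in that fit. Adgra1 was higher in SP in each of the 3 pairs, with a difference of 0.91 ± 0.44 (95% interval -0.03 to 1.85, adjusted p = 0.853).

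The difference between these SP effects passed in 0 members (limma), with 3 at an unadjusted p under 0.05 and 0 of all genes past the test. For Adgrl2 the effect in line 3447 exceeded that in neurospheres by 1.51 ± 0.62, with 0.65 by its second probe set, for Celsr3 by 1.71 ± 0.68, and for Celsr1 it was lower, at -1.51 ± 0.59 (adjusted p = 0.999 for each). For Adgrl1 the 95% interval of the SP effect was -0.47 to 0.29 in line 3447, while its second probe set gave -0.62 there and -1.12 for the difference of the effects, against 0.31 by the probe set used. For Adgrl3 the interval of the SP effect in line 3447 was -0.57 to 0.38.

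**Figure D5:**
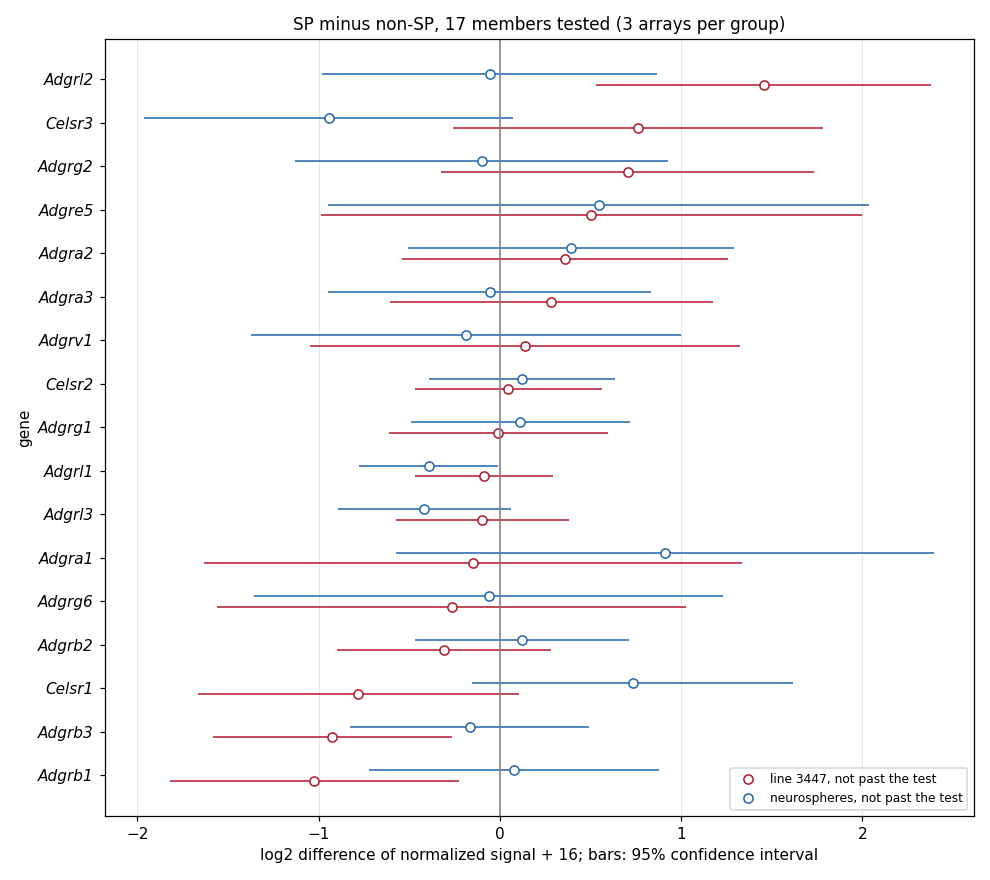
Log2 difference of SP minus non-SP for the 17 members tested in line 3447 (red) and in neurospheres (blue), with bars for the 95% confidence interval. All points are open, since none passed an adjusted p of 0.05, and the interval of Adgrl2 in line 3447 runs from 0.53 to 2.38.

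The ligands and partners of the receptors also differed between tumour and neurosphere cells. Of 39 such genes 28 were tested, and 8 were higher and 5 lower in line 3447 SP, 11 higher and 5 lower in line 4346 SP, and 8 higher and 3 lower in line 3447 non-SP, where 19.7%, 24.3% and 19.5% of all genes passed, with medians of 0.50, 0.78 and 0.14 on the log2 scale, against -0.03, 0.02 and 0.04 over all genes. The list holds 14 partners of the latrophilins, of which 11 were tested, and 3, 4 and 3 of them were higher and 3, 1 and 1 lower; of all genes 10.7%, 14.0% and 11.3% were higher and 9.01%, 10.3% and 8.26% lower. Unc5c, a netrin receptor of a family that also binds FLRT proteins, had the smallest p of the list, with differences of 5.12 ± 0.27 in line 3447 SP (adjusted p = 2.6e-09, limma), 5.89 ± 0.27 in line 4346 SP and 4.69 ± 0.27 in non-SP. Tenm4, a teneurin, was higher by 2.96 ± 0.38, 3.15 ± 0.38 and 2.80 ± 0.38, while Nrxn2, a neurexin, was lower, at -2.66 ± 0.37, -3.10 ± 0.37 and -2.87 ± 0.37. In line 3447 SP the FLRT gene Flrt2 (-2.11 ± 0.44) and Unc5b, of the same family as Unc5c (-1.35 ± 0.40), were also lower. Neither passed in line 4346 SP or in non-SP.

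Partners of other members moved in both directions. Tgm2, the transglutaminase that binds Adgrg1, was higher by 3.77 ± 0.37, 4.79 ± 0.37 and 4.21 ± 0.37. Col3a1, the collagen ligand of Adgrg1, was higher by 2.37 ± 0.57 in line 3447 SP and 4.82 ± 0.57 in line 4346 SP and did not pass in non-SP (1.45 ± 0.57, adjusted p = 0.088). It was the only one of the 28 partners tested that differed between the SP of the lines, where 1.71% of all genes passed. The difference for line 3447 minus line 4346 was -2.45 ± 0.57 (adjusted p = 0.0392, limma). C1ql1, a C1q-like ligand of Adgrb3, was higher by 3.29 ± 0.46, 4.39 ± 0.46 and 2.89 ± 0.46. Wnt7a, the ligand that signals through Adgra2 and Reck, was lower, at -3.70 ± 0.57, -4.08 ± 0.57 and -3.99 ± 0.57. Reck, named after its values were seen, was higher by 1.72 ± 0.30, 1.94 ± 0.30 and 1.30 ± 0.30. The calls of Adgra2 were close to the threshold, and it passed the filter through tumour SP arrays alone. No joint change of Adgra2, Reck and Wnt7a was tested.

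Of 12 planar polarity partners of the Celsr proteins 11 were tested, with 4, 4 and 3 higher and 1, 3 and 1 lower in the same order, against the same shares of all genes. The list medians were -0.05, 0.28 and 0.05. Prickle1 was higher by 2.55 ± 0.27, 2.67 ± 0.27 and 2.82 ± 0.27, Prickle2 by 2.06 ± 0.34, 2.16 ± 0.34 and 2.69 ± 0.34, and the receptor Fzd6 by 1.89 ± 0.26, 1.91 ± 0.26 and 2.04 ± 0.26. Fzd3, which works with Celsr3 in axon guidance, was lower in line 3447 SP (-0.78 ± 0.26, adjusted p = 0.0478) and line 4346 SP (-1.30 ± 0.26, adjusted p = 0.00193), and Vangl2 was lower in line 4346 SP (-1.36 ± 0.32, adjusted p = 0.00597). The large cadherin Fat4 was lower in line 4346 SP (-2.18 ± 0.46, adjusted p = 0.00255) and non-SP (-1.47 ± 0.46, adjusted p = 0.0323) and did not pass in line 3447 SP (-0.96 ± 0.46). Dvl2, a Dishevelled protein, was higher in line 3447 SP (1.05 ± 0.32, adjusted p = 0.028) and line 4346 SP (1.0 ± 0.32, adjusted p = 0.0309).

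Of 36 intracellular effectors 31 were tested, with 4, 6 and 5 higher and 6, 5 and 4 lower, where 19.7%, 24.3% and 19.5% of all genes passed, and list medians of -0.20, -0.09 and -0.18. Gnao1, the Go alpha subunit, was higher by 2.98 ± 0.28, 2.86 ± 0.28 and 2.91 ± 0.28 and Arrb1, which ends receptor signalling, by 1.79 ± 0.41, 1.65 ± 0.41 and 2.16 ± 0.41. Dock1, which acts with Elmo proteins downstream of Adgrb1, was lower, at -1.0 ± 0.24, -1.05 ± 0.24 and -1.39 ± 0.24. Elmo1 went the other way in line 3447 SP (1.57 ± 0.53, adjusted p = 0.0479, limma) and did not pass in line 4346 SP or non-SP. Elmo2 passed in none of these comparisons. Tiam1, a Rac activator, was higher by 0.95 ± 0.27, 1.42 ± 0.27 and 1.4 ± 0.27, and the scaffold Dlg1 was lower, at -0.86 ± 0.21, -0.70 ± 0.21 and -0.66 ± 0.21. The scaffold Magi3 was lower in line 3447 SP (-0.96 ± 0.24, adjusted p = 0.0102) and line 4346 SP (-1.11 ± 0.24, adjusted p = 0.0034) and did not pass in non-SP (-0.51 ± 0.24, adjusted p = 0.155). The adenylyl cyclase Adcy6 was higher in line 4346 SP (0.94 ± 0.25, adjusted p = 0.0118) and non-SP (0.84 ± 0.25, adjusted p = 0.026). No partner of the Celsr proteins and no effector differed between the SP of the lines or between SP and non-SP cells past the test. Of all genes 1.71% passed between the lines, and 0.00841% in line 3447 and 0.0168% in neurospheres between SP and non-SP.

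Summed signals of some lists of cell type markers differed between tumour and neurosphere arrays, while single markers could go the other way. The summed signal of 5 myelin markers was 12894 to 19732 on tumour arrays and 3120 to 6818 on neurosphere arrays, and that of 8 astrocyte markers was 6401 to 14129 and 19276 to 41521. The 7 markers of oligodendrocyte progenitors summed to 12374 to 24523 on tumour and 7087 to 13469 on neurosphere arrays, which overlap. The 7 stem and progenitor markers summed to 32147 to 38406 on tumour and 40099 to 56854 on neurosphere arrays. Only 2 of the 5 myelin markers passed the filter on low signal. In line 3447 SP against neurosphere SP, 5 oligodendrocyte progenitor markers were higher and 2 lower, and 1 astrocyte marker was higher and 5 lower. Of all genes 10.7% were higher and 9.01% lower there. The 6 neuron markers summed to 509 to 1253 on tumour and 248 to 1445 on neurosphere arrays. The 6 endothelial markers summed to 62.1 to 221 on tumour and 337 to 2089 on neurosphere arrays, with Flt1 up to 1990 while Pecam1 stayed at 32 or below and Cdh5 at 48.5 or below. The 4 pericyte markers summed to 1068 to 4971 and 165 to 393, mostly Cspg4, which is also a progenitor marker, and 4 ependymal markers to 13.2 to 594 on all arrays. The 8 microglia and macrophage markers summed to 82.8 to 652 on all arrays, with Aif1 at 12.3 or below. None of these markers was at 0, but the untested members also read above 0. In the endothelial, ependymal and microglia lists, at most 1 marker each lay above the array median in all arrays of a group. The part of all these markers in the receptor differences was not tested. Array medians ran from 40.0 to 89.3, and the arrays of a group correlated with each other at a mean rank correlation of 0.933 to 0.981. Line 4346 SP array 3, which had the highest Adgre5 and the lowest Adgrl2 and Celsr2 of its group, had an actin 3' to 5' probe ratio of 5.30 against 2.49 to 3.29 on the others. Whether this ratio bears on those values was not tested.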

How the data were processed

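The authors deposited linear intensities, computed by the MAS5 method with Affymetrix Expression Console per the submitters' processing notes; no software version was named there. Per the labels, small amounts of total RNA went through NuGEN Ovation Pico amplification and biotin labelling. Of 45101 probe sets 64 were controls, and 34945 carried 1 gene symbol, 932 several and 9160 none in the array annotation. Array medians differed by up to 2.23 times, over the limit of 1.5 set for normalizing, so values were quantile normalized before log2 of the value plus 16 was taken. That constant makes fold changes of low genes too small. A gene was tested if its signal exceeded the array median on 3 arrays or more, which held for 11896 of 18193.

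limma 3.58.1 in R 4.3.3 fitted 5 group means to 15 arrays (10 residual degrees of freedom) with a mean-dependent prior variance and two-sided tests. p-values were adjusted by Benjamini-Hochberg over all genes tested, at 0.05, in 7 comparisons. Quoted signals are as deposited, and differences are on the normalized log2 scale with their SE; "every alternative" means the 27 described at the end. The code was checked on simulated data. Nothing says whether the arrays came from separate cultures beyond the hosts or mice named, so p-values measure the spread between these samples, and 3 arrays a group limit the precision.

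Equal replicate numbers were checked as pairs of SP and non-SP arrays. In neurospheres the deviations of equally numbered arrays correlated at 0.579, 0.521 and 0.619, so the numbers pair those samples. In line 3447 the correlations were -0.224, -0.248 and -0.12, so the numbers do not pair those samples. Some unequally numbered arrays of line 3447 correlated positively, SP 1 with non-SP 2 at 0.364, SP 2 with non-SP 3 at 0.295 and SP 3 with non-SP 1 at 0.217. Whether these are pairs is not known, and no fit used them as such.

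Members, lists and rules were chosen with earlier results of these data known. All members are named, with array values for those past the test; of partner lists, up to 6 genes with the smallest p are named in each comparison, except some that are not reported here, and other partners are named after their values were seen. Promoter sequences are from RefSeq on GRCm38.p6; the deposited values have no coordinates.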

Additional observations from a re-analysis of the deposited data

Results flagged for a closer look

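Adgrl2 differed between the tumour lines in its distance from the neurosphere SP, by -4.91 on the log2 scale for line 3447 minus line 4346 (limma adjusted p = 7.3e-06). Both distances use the same neurosphere SP arrays, which cancel in this value.

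The SP effect of Celsr1 in line 3447 minus that in neurospheres was -1.51 on the log2 scale. After normalization its SP arrays lay below its non-SP arrays in line 3447 and above them in neurospheres, without overlap, while the deposited signals overlapped in both. The limma test of the difference gave an unadjusted p of 0.0212 and an adjusted p of 0.999, so it did not pass.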

How the results depend on the processing

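Of the 27 calls of members in the 7 comparisons, 17 held under all 27 alternatives, 10 were lost under at least 1 (Adgra2 in 3 comparisons, Adgra1 in 2, and Celsr1, Celsr2, Adgre5, Adgrg2 and Adgrb2 in 1 each) and 0 reversed. Fitting only the compared groups left 6 members past the test in line 4346 SP, a fit with fewer arrays. Leaving out 1 array at a time gave 7 to 8 members in line 3447 SP, 6 to 10 in line 4346 SP, 4 to 7 in line 3447 non-SP, 1 in line 3447 against line 4346 and 0 in the other 3. With the replicate block in neurospheres the counts were 8, 10 and 7 in the comparisons with neurospheres, and Adgra2 in line 3447 SP (adjusted p = 0.054) was the only call that changed; with the replicate block in line 3447 too they were 8, 8 and 6. Adgre5 passed in non-SP when only the compared groups were fitted (adjusted p = 0.0353). Centring each array on its median moved the median of all genes to -0.18, 0.20 and 0.18 in the comparisons with neurospheres and to -0.38 between the lines. The causes of these changes were not tested. Members at the low end of the arrays, the 8 untested ones included, are limited by signal over background.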
